A study of Mus musculus with 28 samples.

Results

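The regions described here are the strong meiotic break peaks of Prdm9 (K/K) mouse testis that lie away from the ends of genes. A peak was included when it held at least 57 distinct single-stranded fragments, each counted once by chromosome, start, end and strand and placed by its midpoint. It also had to lie over 1000 bp from the start or end of any gene in the RefSeq annotation of GRCm38.p6. Of the 17731 peaks deposited for the library, 560 met both conditions. Fragment counts and positions chose these peaks, so both are given as description and support nothing.

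The series asks what the domains of PRDM9 do in meiosis. Prdm9 (K/K) mice carry a PRDM9 that lacks its KRAB domain, on the C57BL/6 strain. Their breaks were mapped by single-stranded DNA sequencing (SSDS) in 1 library, made from fixed, sonicated whole testis with an antibody labelled SC 8973(C-20). Messenger RNA came from testes of the same strain in 2 libraries of Prdm9 KO, 2 libraries of Hop2 KO and 1 adult wild-type library. The labels give no age for the K/K and KO mice, do not say whether libraries came from separate animals, and give no cell type below whole testis. No mRNA library of K/K testis is among the samples, so the mRNA values below describe other genotypes. The chromatin libraries for trimethylated H3K4 were not analysed here.

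PRDM9 binds DNA through its zinc fingers and trimethylates H3K4 nearby, and SPO11 then makes double-strand breaks at those sites. In mice without PRDM9 the breaks move to other sites that carry the same mark, many of them promoters. At each break the ends are trimmed back to single strands that the recombinase DMC1 coats. SSDS recovers these strands, so forward-strand fragments pile up to the left of a break and reverse-strand fragments to its right.

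Of the 534 such peaks off the chromosome that has no listed starts, 150 sat on a listed start of a shorter transcript inside a gene. The sequences at 6 such starts are shown, because base composition and motifs are described below for windows at starts of this kind. They come from the 6 members with the most fragments among those that hold a listed start. Each window runs from 250 bases before the transcript start to 50 bases into the transcript, in the direction of transcription, and was taken from RefSeq (GRCm38.p6). Capitals mark matches on either strand to the GC box GGGCGG, the CCAAT box, the cyclic AMP response element TGACGTCA, the ETS site CCGGAAG and the NRF1 site GCGCATGCG.
Mllt10, plus strand, chr2:18064335-18064634: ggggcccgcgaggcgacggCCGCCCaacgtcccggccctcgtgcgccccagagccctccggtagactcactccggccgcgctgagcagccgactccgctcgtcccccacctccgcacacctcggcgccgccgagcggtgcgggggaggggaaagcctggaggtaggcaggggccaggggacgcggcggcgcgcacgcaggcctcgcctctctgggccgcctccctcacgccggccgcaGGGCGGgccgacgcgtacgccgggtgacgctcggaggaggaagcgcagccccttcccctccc
Tmpo, minus strand, chr10:91171570-91171869: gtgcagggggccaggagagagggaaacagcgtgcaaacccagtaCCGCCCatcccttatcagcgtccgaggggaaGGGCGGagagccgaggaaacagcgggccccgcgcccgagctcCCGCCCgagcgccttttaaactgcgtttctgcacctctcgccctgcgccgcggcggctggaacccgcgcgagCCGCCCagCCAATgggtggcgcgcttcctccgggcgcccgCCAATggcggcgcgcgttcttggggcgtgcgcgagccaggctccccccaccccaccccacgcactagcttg
Celf2, minus strand, chr2:6871986-6872285: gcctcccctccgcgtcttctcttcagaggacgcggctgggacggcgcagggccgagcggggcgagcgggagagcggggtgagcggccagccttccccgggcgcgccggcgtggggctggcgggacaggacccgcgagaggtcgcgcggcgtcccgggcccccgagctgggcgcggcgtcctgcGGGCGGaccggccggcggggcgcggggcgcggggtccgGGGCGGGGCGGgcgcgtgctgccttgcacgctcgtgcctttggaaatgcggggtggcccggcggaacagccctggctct
Atad2b, plus strand, chr12:4917103-4917402: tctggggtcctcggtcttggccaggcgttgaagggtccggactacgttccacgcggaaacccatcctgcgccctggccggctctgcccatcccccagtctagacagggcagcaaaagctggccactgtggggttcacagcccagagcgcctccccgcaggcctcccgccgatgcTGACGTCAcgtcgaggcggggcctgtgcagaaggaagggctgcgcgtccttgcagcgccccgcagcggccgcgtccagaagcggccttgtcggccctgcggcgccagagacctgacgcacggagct
Spdya, plus strand, chr17:71551811-71552110: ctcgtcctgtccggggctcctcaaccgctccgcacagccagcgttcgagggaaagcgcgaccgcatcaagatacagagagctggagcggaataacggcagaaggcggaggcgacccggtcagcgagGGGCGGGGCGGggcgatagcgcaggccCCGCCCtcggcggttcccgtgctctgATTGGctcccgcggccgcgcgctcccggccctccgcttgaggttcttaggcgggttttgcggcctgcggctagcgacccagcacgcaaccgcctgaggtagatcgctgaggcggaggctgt
Jmjd1c, plus strand, chr10:67126838-67127137: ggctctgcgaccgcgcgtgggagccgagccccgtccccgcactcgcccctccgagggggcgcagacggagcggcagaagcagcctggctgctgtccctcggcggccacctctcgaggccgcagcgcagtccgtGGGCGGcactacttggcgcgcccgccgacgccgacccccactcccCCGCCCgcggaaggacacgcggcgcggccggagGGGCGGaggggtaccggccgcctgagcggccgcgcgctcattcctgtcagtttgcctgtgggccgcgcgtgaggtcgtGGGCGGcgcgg

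These 6 windows were rich in G, C and CpG. Celf2, which encodes an RNA-binding splicing regulator, had 80.3% G or C and 48 CpG pairs, the most CpG of the 6. Mllt10, which encodes the AF10 cofactor of the H3K79 methyltransferase DOT1L, had 78.3% and 43 CpG. Jmjd1c, a gene of the JmjC histone demethylase family, had 78% and 47 CpG. Tmpo, which encodes the lamina-associated LAP2 proteins, had 71.7% and 36 CpG. Spdya, which encodes the CDK2 activator Speedy A needed at meiotic telomeres, had 69.7% and 38 CpG. Atad2b, a bromodomain gene, also had 69.7% but 29 CpG, the fewest. GC boxes numbered 4 in Tmpo and Jmjd1c, 3 in Celf2 and Spdya, 2 in Mllt10 and 0 in Atad2b. The CCAAT box occurred 2 times in Tmpo and 1 time in Spdya. The Atad2b window was the only one of the 6 with the cyclic AMP response element, and no window of the 6 held the ETS or NRF1 letters.

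The deposited fragment file held 9397213 lines for 2652951 distinct fragments, or 3.54 lines per fragment, with a median length of 91 bases. Of the distinct fragments, 26.3% had their midpoint in a peak, and the median peak held 23. With 1 library there is no replicate check, and no test was made. Intervals below are exact 95% Poisson intervals for counts and exact 95% binomial (Clopper-Pearson) intervals for shares. They cover counting error only, and peaks of 1 library are not replicates.

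The 560 peaks held 61137 distinct fragments, or 2.30% of the library's. They made up 15.5% of the 3612 peaks with at least 57 fragments and 8.02% of the 6984 peaks over 1000 bp from gene ends. Fragments per peak ranged from 57 to 1234 with a median of 85 and quartiles of 68 and 121. Most were close to the lower limit, since 352 peaks held 57 to 99 fragments, 175 held 100 to 199, 30 held 200 to 499 and 3 held 500 or more. At the limit, 11 peaks away from gene ends held exactly 57 fragments and 19 held exactly 58, while 19 held 56 and 14 held 55 and fell outside. The median width was 2212 bp at 57 fragments and 2434 bp at 56. Just inside the distance limit were peaks in Med12l at 1006 bp, Snapc3 at 1017 bp and Bloc1s5 at 1027 bp. Just outside it were peaks in Fat1 at 987 bp, Rbm26 at 984 bp and Ccdc50 at 968 bp, with 95, 117 and 123 fragments.

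The 3 strongest peaks of the whole library were among the 560, and 18 of its 100 strongest were. The strongest lay in Plekha5, which encodes a pleckstrin homology domain protein, at chr6:140588386-140594537. It held 1234 fragments (Poisson interval 1166 to 1305), of which 588 were forward and 646 reverse. It lay 2573 bp from the nearer gene end. The second lay in Enpp6, which encodes a choline-specific phosphodiesterase, at chr8:47000931-47006866. It held 894 fragments (836 to 955), with 525 forward and 369 reverse, 61734 bp from the nearest gene end. The third lay in Nrg1, the gene of the ErbB receptor ligand neuregulin 1, at chr8:32247708-32251977. It held 862 fragments (805 to 922), with 404 forward and 458 reverse, 61460 bp from the nearest gene end. These 3 intervals all lay above that of the fourth member, in the mucin gene Muc3, which held 497 fragments (454 to 543). None of the 4 held a listed transcript start.

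Lower in the order, the peaks in Trip12, a ubiquitin ligase gene, and in Rnf17, a Tudor-domain gene, held 445 and 414 fragments. Those in Nrip1, which encodes a nuclear receptor corepressor, and in Klhdc4 held 407 and 386. A peak between genes near Nedd1 at chr10:92679744-92682459 held 370. Peaks in Poli, which encodes the translesion DNA polymerase iota, and in Mllt10, and 1 between genes near Gm30149, each held 345. Peaks in Zkscan16, in the glucocorticoid receptor gene Nr3c1 and in Nsmce2, a SUMO ligase gene of the SMC5/6 complex, held 341, 310 and 300. A peak near Gm32328 held 278, those in Cntnap5b and Tmpo 270 each, and those in Dleu2, the host transcript of miR-15a, and in Celf2 265 each. Neighbours in this order had overlapping Poisson intervals, whereas those of Mllt10 (310 to 383) and Celf2 (234 to 299) did not overlap. The 20 strongest peaks held 8843 fragments, or 14.5% of those in the 560.

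**Figure D1:**
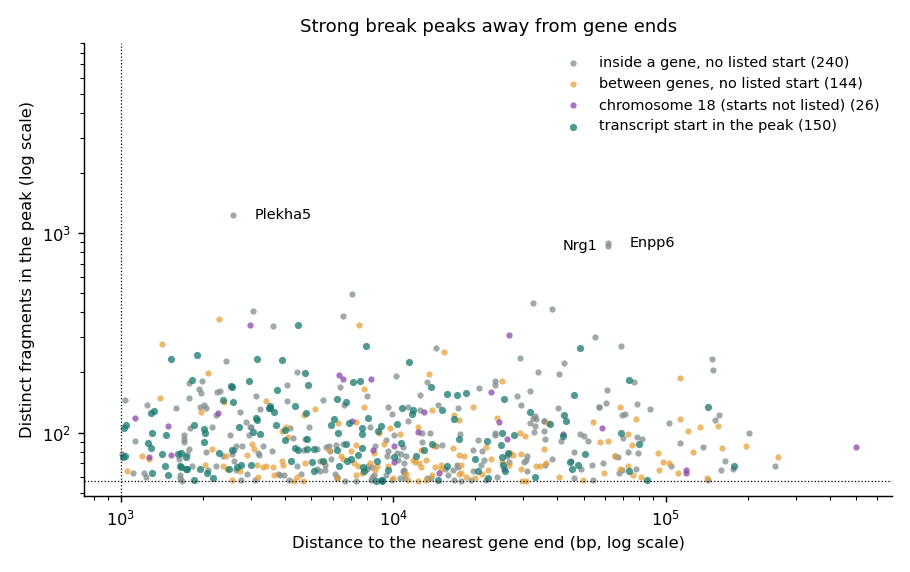
Each of the 560 strong peaks away from gene ends, by distance to the nearest gene end (bp, log scale) and distinct fragments (log scale), coloured by what lies in the peak. Dotted lines mark the limits of 1000 bp and 57 fragments; Plekha5, Enpp6 and Nrg1 stand above the rest, and the 150 peaks that hold a transcript start reach no more than 345 fragments.

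Each line of the fragment file carries a pair of numbers from 0 to 60 without a header, read here as mapping qualities. In the median member 95.4% of lines had both at 60, against 98.0% in the weaker peaks away from gene ends and 96.3% in the strong peaks at gene ends. In 454 of the 560 the share was over 90%. In 3 it was under 50%, namely 34.65% in the Enpp6 peak, 38.15% at chrX:129612422-129614787 and 34.0% at chr14:8798929-8800832. The Plekha5 peak had 83.2% and the Nrg1 peak 95.2%. Whether repeated sequence adds to the count of the Enpp6 peak was not tested.

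Fragments in the 560 peaks had the strand order of break sites. The median forward fragment lay left of the median reverse fragment in 559 of 560, or 99.8% (99.0 to 100%). The same order held in 98.0% of 6372 weaker peaks away from gene ends and in 99.8% of strong peaks at gene ends. The distance between the strand medians, called the shift here, had a median of 927 bp with quartiles of 775 and 1090 bp in the 560 peaks. It was 629 bp in the weaker peaks away from gene ends and 1041 bp in the strong peaks at gene ends. Only fragments inside a peak enter its shift, and the part of peak width in these differences was not tested. The shift lay between 500 and 1500 bp in 525 of the 560. In the median member 83.5% of fragments lay on their own strand's side of the break centre, the midpoint of the strand medians.

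**Figure D2:**
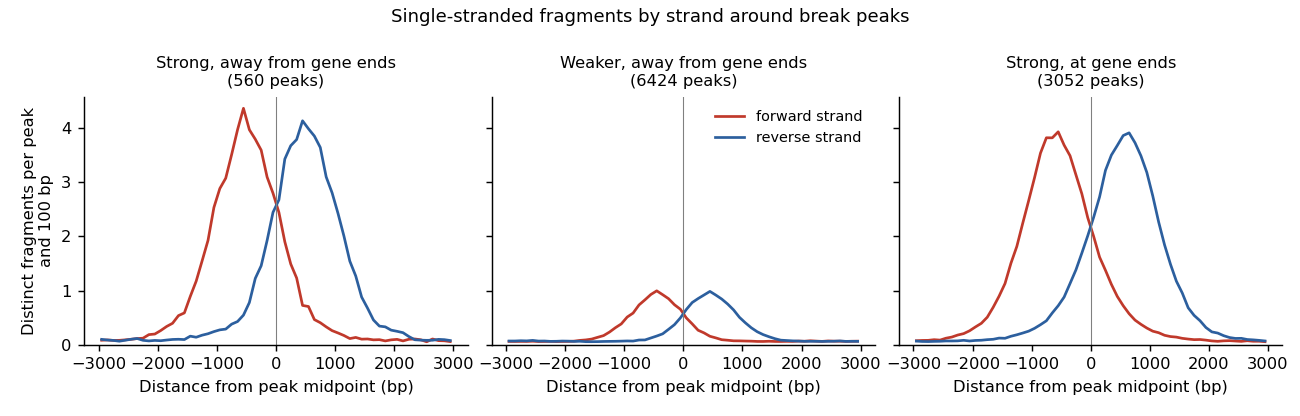
Distinct fragments per peak and 100 bp (y axis) by distance from the peak midpoint (x axis, bp), for forward and reverse strands in the 560 strong peaks away from gene ends, 6424 weaker peaks away from gene ends and 3052 strong peaks at gene ends. In the 560, the forward strand is highest at -550 bp with 4.36 fragments per peak and the reverse strand at 450 bp with 4.13.

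The strands were evenly filled in most members, and a few stood apart. The forward share was between 40 and 60% in 430 of the 560, under 30% in 6 and over 70% in 6. The Klhdc4 peak had 337 forward and 49 reverse fragments, or 87.3% forward (83.6 to 90.5%), with 77.9% of lines at the highest quality pair. A peak in B3gat2 at chr1:23785569-23787901 had 14 forward and 168 reverse, or 7.69% forward (4.27 to 12.6%), with 72.7% of lines at that pair. The stronger peak in Nsmce2 had 215 forward and 85 reverse. These are the largest departures from an even fill among the members with over 100 fragments, and in both Klhdc4 and B3gat2 fewer lines had the highest quality pair than in the median member. What part mapping has in this was not tested. The 1 peak with the reversed order lay in Gm41228 at chr14:98956324-98960314, with 53 forward and 33 reverse fragments and a shift of -469 bp. Its reverse fragments were spread over most of the peak, with quartiles at 1138 and 3289 bases from the peak's start, and its forward fragments at 715 and 2705. The largest shift, 2805 bp, was that of the Nr3c1 peak.

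Density in the members was close to that of the strong peaks at gene ends. Members held a median of 32.7 distinct fragments per kb of peak, against 9.45 in the weaker peaks away from gene ends and 32.7 in the strong peaks at gene ends, with median widths of 2647, 1526.5 and 2846.5 bp in the same order. Fragments 5 to 15 kb to each side of the peak, a local background, numbered 0.95 per kb in the median peak of all 3 sets. The members' density was a median of 33.4 times their own flanks, against 9.83 times in the weaker peaks and 34.98 times in the strong peaks at gene ends. Density follows from the fragment limit and is a description.

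Most members lay inside genes. Of the 560, 405 lay within an annotated gene, or 72.3% (68.4 to 76.0%), against 53.5% (52.3 to 54.7%) of the 6424 weaker peaks away from gene ends. In 377 the gene was protein-coding, in 28 it was noncoding only, and 155 lay between genes. Members in protein-coding genes held a median of 90 fragments, those in noncoding genes 100.5 and those between genes 76. Exons and introns were not used here, since the gene table gives gene ends alone.

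The distance to the nearest gene end had a median of 9566.5 bp and ranged from 1006 to 499081 bp. By distance, 62 members lay at 1 to 2 kb, 122 at 2 to 5 kb, 101 at 5 to 10 kb, 193 at 10 to 50 kb, 51 at 50 to 100 kb and 31 beyond. The share inside a gene was 90.3% at 1 to 2 kb and 51.6% beyond 100 kb, and it was lower in each farther bin. In the weaker peaks away from gene ends it also fell, from 72.7% at 1 to 2 kb to 46.6% beyond 100 kb. There it was 47.8% at 10 to 50 kb and 50.1% at 50 to 100 kb. The farthest member was chr18:18482644-18485146, between genes and 499081 bp from an end, with 85 fragments. The next were chr14:83143113-83147363 at 258268 bp with 75 fragments and a peak in Fam155a at 251925 bp with 68. A peak in Sema3a, which encodes a repulsive axon guidance cue, lay at 202659 bp with 100 fragments, and 1 between genes on chromosome 10 lay at 197001 bp with 86. None of these 5 exceeded 100 fragments.

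Members were on every autosome and the X chromosome. They numbered between 13, on chromosomes 9 and 13, and 39, on chromosomes 1 and 14. As a share of the peaks away from gene ends they ranged from 4.66% on chromosome 13 (2.50 to 7.84%) to 11.5% on chromosome 14 (8.285 to 15.35%), and these 2 intervals do not overlap, though they are the extremes of 20 chromosomes. On the X chromosome the share was 10.8% (6.63 to 16.3%), with 19 members and a median of 110 fragments, the highest median of any chromosome. The Y chromosome had 1 peak and no member.

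The X chromosome is largely unpaired in male meiosis, so breaks there have no homologue to repair from outside the pseudoautosomal region. Its strongest member lay in Rps6ka6, a ribosomal S6 kinase gene, with 183 fragments. Members in Rnf128, a ubiquitin ligase gene, and at chrX:73400103-73403159 between genes held 154 and 149. Members lay in both Ftx and Tsix, long noncoding genes of the X inactivation centre, with 145 and 134 fragments, and Tsix is the antisense partner of Xist. Gm364, Klhl15, Cul4b, Dlg3 and Klf8 followed with 143, 128, 124, 117 and 110 fragments. The deubiquitinase gene Otud5, the TFIID subunit gene Taf1 and the apoptosis inhibitor gene Xiap held members of 89, 84 and 77. Vma21, a V-ATPase assembly gene, had 69, Fsip2l had 65, and 3 others lay between genes with 70, 69 and 57. In 10 of these 19 the peak held a listed transcript start, namely those in Rps6ka6, Rnf128, Gm364, Klhl15, Dlg3, Klf8, Otud5, Taf1, Xiap and Vma21.

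Few genes hosted more than 1 member. The 405 members inside genes had 384 different first host genes, and 19 of these hosted over 1, with 40 members in all. Rreb1, a zinc finger gene, hosted 3 with 69 to 135 fragments, and Fam155a hosted 3 with 58 to 68. Nrip1 hosted 2 with 407 and 81 fragments, Nsmce2 2 with 300 and 141, Senp7, a SUMO protease gene, 2 with 224 and 125, and Zeb2, a repressor of epithelial genes, 2 with 173 and 133. Another peak of any strength lay within 5000 bp of 74 members, or 13.2%, against 14.8% of the weaker peaks away from gene ends and 9.76% of the strong peaks at gene ends. A strong peak at a gene end lay within 20000 bp of 76 members, and another member within 10000 bp of 8.

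The gene table used by the rule lists the outermost ends of each gene, while RefSeq lists 32851 transcript starts in 27025 genes off chromosome 18, including starts of shorter transcripts inside genes. Of the 534 members off chromosome 18, 150 had such a start within 1000 bp, or 28.1% (24.3 to 32.1%), and in all 150 the start lay inside the peak. Among the 6097 weaker peaks away from gene ends off chromosome 18 the share was 8.30% (7.62 to 9.02%). The remaining 384 members comprised 240 inside a gene and 144 between genes, and chromosome 18 held 26 for which no starts are listed. Median width was 2647 bp in members and 1526.5 bp in the weaker peaks, and the part of width in these shares was not tested. Counted the other way, 4728 listed starts lay over 1000 bp from all gene ends. Of these, 185 (3.91%) lay in members, 547 (11.6%) in weaker peaks away from gene ends and 3577 (75.7%) in no peak. The other 419 lay in peaks at gene ends.

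The members with a start held a median of 93 fragments and at most 345, those inside a gene without a start 86 and at most 1234, and those between genes 74.5. Members with a start made up 3 of the 20 strongest and 30 of the 100 strongest members. By fragment count, the share with a start was 21.7% at 57 to 69 fragments, 26.5% at 70 to 89, 34.6% at 90 to 119, 34.3% at 120 to 199 and 25.8% (11.9 to 44.6%) at 200 or more. The intervals of these bins overlap. The strand shift had a median of 1066 bp in members with a start, 888.5 bp in those inside a gene without one and 892 bp in those between genes.

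Break centres lay close to these starts and mostly downstream. Where a member held several starts, the nearest to its break centre was used. The break centre lay a median of 203 bp downstream of it, with quartiles of 58.4 and 353 bp, and within 500 bp in 130 of 150. It lay downstream in 117 members and upstream in 33. In weaker peaks away from gene ends the median was 141.5 bp, with 70.6% downstream, and in strong peaks at gene ends 177 bp, with 76.8% downstream, against 78% in the members. The share within 500 bp was 86.7% in the members, 86.6% in the weaker peaks and 87.2% in the strong peaks at gene ends. Only starts inside a peak were used, so closeness partly follows from this choice. Around the 150 starts, fragments of the transcript's own strand were most frequent at -550 bp, with 3.73 per start and 100 bp, and those of the other strand at 650 bp, with 4.37. In strong peaks at gene ends, taking the start of lowest coordinate in each peak, the maxima lay at -350 bp with 3.44 and at 750 bp with 3.94. That start was chosen otherwise than in the members, and the part of this choice in the difference was not tested.

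**Figure D3:**
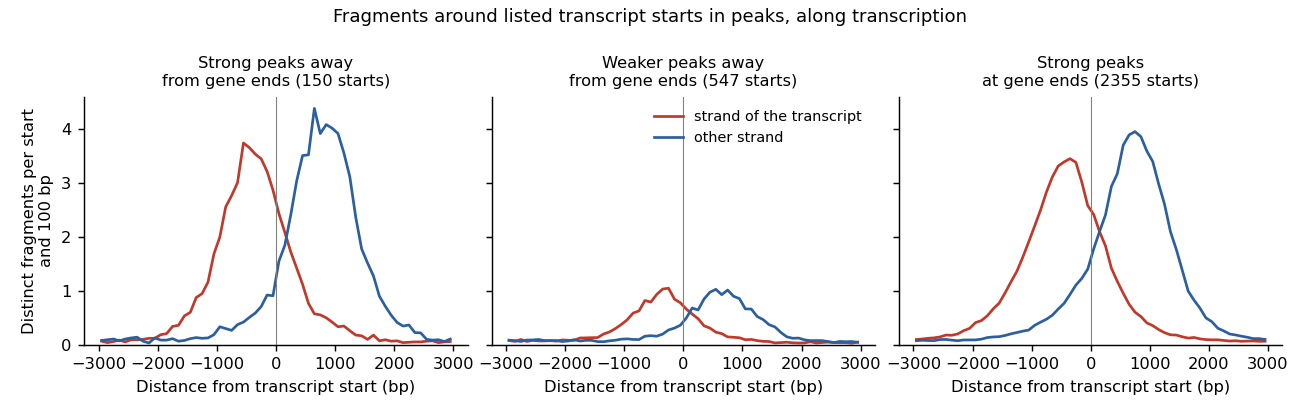
Distinct fragments per start and 100 bp (y axis) by distance from a listed transcript start along transcription (x axis, bp), for the transcript's own strand and the other strand. Panels show 150 starts in strong peaks away from gene ends, 547 in weaker peaks away from them and 2355 in strong peaks at them. Starts are the nearest to the break centre in the first panel, all listed starts in the next and the lowest coordinate per peak in the last. In the first panel the strands cross to the right of the start.

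The rule places these starts over 1000 bp from the gene's own 5′ end, and their distance was not set beside that of other internal starts. The distance had a median of 9587.5 bp, with quartiles of 4456 and 34851 bp, and reached 1035618 bp, and 146 of the 150 genes were protein-coding. In 149 genes it was over 2000 bp, so fragments at the start and at the 5′ end could be counted apart. Within 1000 bp of the start these genes had a median of 72 distinct fragments (23 to 216), and within 1000 bp of the 5′ end a median of 4 (0 to 148). The start had more fragments than the 5′ end in 138 of 149, and 86 had at most 5 at the 5′ end. The members were chosen for fragments at the start and not at a gene end, so this direction follows from the rule. A peak lay within 1000 bp of the 5′ end in 53 of the 150 genes, or 35.3% (27.7 to 43.55%), against 31.0% (26.8 to 35.5%) of the genes whose internal start lay in a weaker peak and 26.5% (24.8 to 28.1%) of those whose internal start lay in no peak. The first of these intervals overlaps the second and the third.

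Single genes show the range between the start and the 5′ end. Atad2b had 183 fragments at the internal start and 1 at the 5′ end, which lay 2949 bp upstream. Celf2 had 182 at the start and 8 at the 5′ end, 524306 bp away. Mllt10 had 216 and 37, Jmjd1c 178 and 25, Tmpo 183 and 91, and Spdya 187 and 85, each with the internal start given before the 5′ end. Thus Tmpo and Spdya had many fragments at both places, and Atad2b and Celf2 nearly all at the internal start. Hif1a, which encodes the oxygen-regulated HIF-1 alpha, had 122 at the internal start and 1 at the 5′ end. Lin28b, which encodes a repressor of let-7 maturation, went the other way, with 128 at the internal start and 148 at the 5′ end. Atxn7 had the largest excess at the 5′ end, with 44 at the internal start and 129 at the 5′ end.

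Most windows at starts in members met base composition limits used for CpG islands. Their median content of G or C was 64.3%, with quartiles of 56.3 and 71%, and their ratio of observed to expected CpG had a median of 0.84. A window was counted as island-like with over 50% G or C and a CpG ratio over 0.6, and 123 of 150 were, or 82% (74.9 to 87.8%). The share was 56.1% (51.9 to 60.3%) for 547 starts in weaker peaks away from gene ends and 10.5% (9.53 to 11.6%) for 3577 starts over 1000 bp from gene ends that lay in no peak. It was 82.0% for 3428 starts in strong peaks at gene ends and 33.3% for all listed starts. Members count here by 1 start each and the other sets by every listed start. Windows end 50 bases into the transcript, whereas break centres of members lay a median of 203 bp downstream of the start. Most of the member windows thus do not hold the break centre, and they describe the start.

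**Figure D4:**
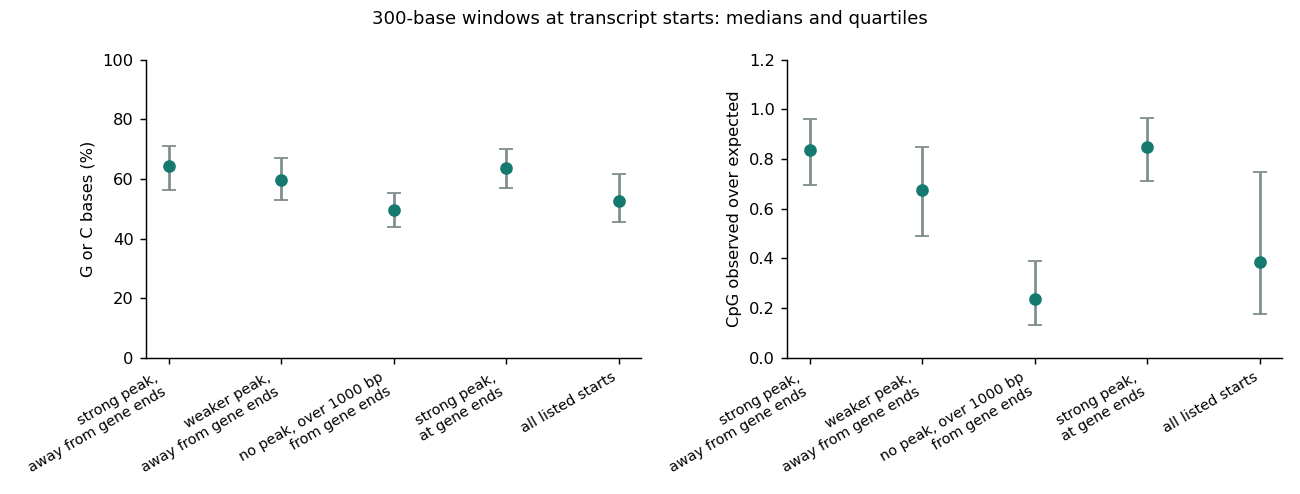
Median and quartiles (points and bars) of G or C content in percent and of the ratio of observed to expected CpG in windows of 300 bases at transcript starts. Starts in the strong peaks away from gene ends (150 windows, medians 64.3% and 0.84) lie beside those in strong peaks at gene ends and above those in no peak (49.7% and 0.24).

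Not all were of this kind. The highest contents of G or C were 86% at the start in Usp7, which encodes a deubiquitinase of the p53 pathway, 85% in Fam169a, 83.3% in the actin regulator gene Enah, 82% in the proteasome adaptor gene Ecpas and 80.7% in the importin gene Ipo5. The lowest were 39% in Lin28b, 39.3% in Pdzrn4, 41% in the phospholipase C gene Plce1, 41.7% in the bromodomain gene Baz2b and 44.7% in Tnrc6a, which encodes a microRNA silencing protein. Low content did not mean few fragments in each case, since the Lin28b member held 226 and the Baz2b member 180, whereas the Pdzrn4 member held 58. The Usp7 and Enah members held 117 and 82.

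The GC box GGGCGG was found on either strand in 100 of the 150 windows, or 66.7% (58.5 to 74.1%). It was found in 59.2% of windows in weaker peaks away from gene ends, 19.4% of those in no peak, 71.2% of those in strong peaks at gene ends and 35.7% of all windows of this length. The CCAAT box was found in 36.7% of member windows, 39.7% of windows in strong peaks at gene ends and 37.4% of all windows, and the STRA8 letters CNCCTCAG in 12% (7.27 to 18.3%) of member windows, 11.8% of windows in strong peaks at gene ends and 7.94% of all windows. TGACGTCA was found in 7 member windows, or 4.67% (1.90 to 9.38%), against 3.38% of windows in strong peaks at gene ends and 1.79% of all windows. GCGCATGCG was found in 3.33% of member windows, 4.35% of windows in strong peaks at gene ends and 1.75% of all windows. CCGGAAG was found in 10.7% of member windows, 19.5% of windows in strong peaks at gene ends and 8.86% of all windows. The letters TATAAA were found in 4% (1.48 to 8.50%) of member windows, 5.43% of windows in strong peaks at gene ends and 13.6% of all windows. In member windows, windows in strong peaks at gene ends and all windows, in this order, the AP-1 letters TGANTCA were found in 4.67, 3.79 and 7.81%. The E box CACGTG was found in 8, 11.7 and 7.15%, AGGGGGCGC of the CTCF motif in 2.67, 2.54 and 1.245%, and GTTGCCATG of RFX in 0.667, 0.496 and 0.773%. In windows in weaker peaks away from gene ends and in no peak, in this order, the CCAAT box was found in 34.55 and 36.3%. The STRA8 letters were found in 7.86 and 7.13% of these, TGACGTCA in 1.46 and 0.895% and GCGCATGCG in 1.28 and 0.447%. There CCGGAAG was found in 13.0 and 2.85%, TATAAA in 6.22 and 14.8% and TGANTCA in 4.94 and 9.14%. CACGTG was found in 9.14 and 4.36%, AGGGGGCGC in 2.925 and 0.671% and GTTGCCATG in 0.731 and 0.643%. No motif holds another in full, though matches can overlap, and the sets differ in content of G and C as given above. These matches describe letters and do not show that a factor bound.

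The mRNA values of the members' host genes were read in testes of other genotypes. Values are the authors' rescaled TPM, a per-length measure of abundance without a known depth. The labels were examined first. Psmc3ip, the gene also named Hop2, had 22.8 and 26.4 in Prdm9 KO testes, 3.51 and 5.06 in Hop2 KO testes and 197 in wild-type testis. Prdm9 had 4.73 and 5.93 in Prdm9 KO testes, 10.7 and 15.0 in Hop2 KO testes and 6.20 in wild-type testis, so its mRNA does not tell Prdm9 KO from wild type. The spermatid gene Prm1 had 0.313 and 1.15 in Prdm9 KO testes, 0.0842 and 6.55 in Hop2 KO testes and 27279 in wild-type testis, while the meiotic gene Sycp3 had 50.85 to 88.1 in all 5 libraries. The Sertoli gene Cldn11 had 804 and 599 in Prdm9 KO testes and 807 and 765 in Hop2 KO testes, against 126 in wild-type testis. Markers of spermatids and of Sertoli cells thus differed between the KO and wild-type libraries, and in whole testis fewer cells of a type and less RNA per cell cannot be told apart.

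Among the sets compared, the genes with a transcript start in a member had the highest medians. Genes with a start in a strong peak at a gene end were not among these sets. Of these 150 genes 145 matched the mRNA table, and their median was 27.4 and 27.1 in the Prdm9 KO libraries, 28.1 and 25.65 in the Hop2 KO libraries and 27.5 in wild-type testis. Host genes of members without a listed start were taken off chromosome 18, and 199 of 222 matched. They had medians of 8.32 and 7.12 in Prdm9 KO testes, 7.845 and 6.32 in Hop2 KO testes and 11.7 in wild-type testis. Genes such as Rreb1 and Senp7 hosted members with and without a start and count in both sets. Genes with an internal start in a weaker peak (434) had medians of 14.3 and 14.3 in Prdm9 KO testes, 14.2 and 13.8 in Hop2 KO testes and 19.3 in wild-type testis. Those with an internal start in no peak (1903) had 4.44 and 4.30 in Prdm9 KO testes, 4.39 and 4.15 in Hop2 KO testes and 7.69 in wild-type testis. All protein-coding genes (21163) had 4.80 and 4.87 in Prdm9 KO testes, 4.84 and 4.76 in Hop2 KO testes and 6.79 in wild-type testis. The order of the sets with starts was the same in all 5 libraries. Matched were 434 of 451 genes with an internal start in a weaker peak and 1903 of 2756 with one in no peak. Of all protein-coding genes 21163 of 21887 matched, and unmatched genes of any set have no value here. The part of unmatched genes in the differences between sets was not tested.

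**Figure D5:**
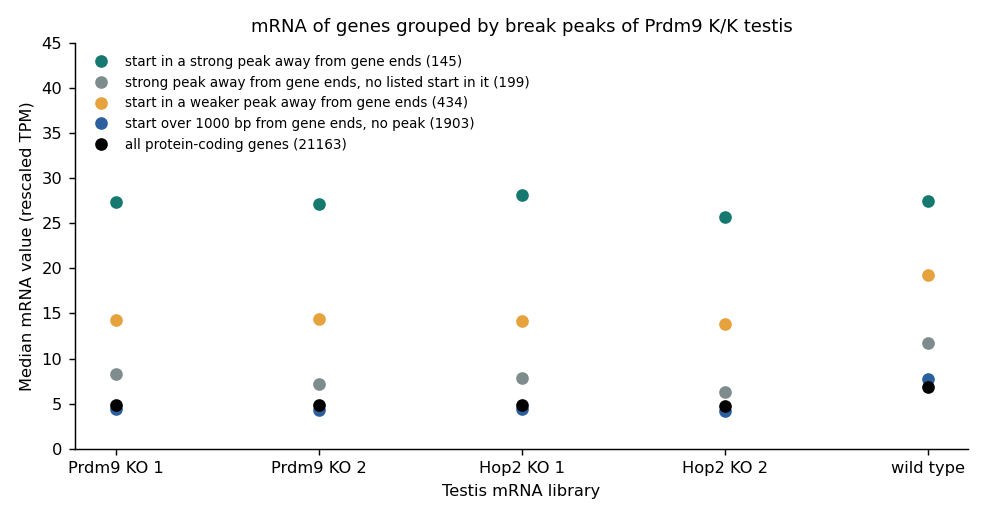
Median mRNA value (rescaled TPM, y axis) of genes grouped by the break peaks of Prdm9 (K/K) testis, in 2 Prdm9 KO libraries, 2 Hop2 KO libraries and 1 wild-type library (x axis). Of the sets shown, genes with a transcript start in a strong peak away from gene ends have the highest median in each library, between 25.65 and 28.1.

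A mean of at least 1 in the Prdm9 KO libraries was reached by 306 of 356 matched host genes of members, or 86.0% (81.9 to 89.4%). It was reached by 95.2% (90.3 to 98.0%) of the genes with a start in a member. Of the genes with an internal start in a weaker peak, 85.9% (82.3 to 89.1%) reached it. The share was 79.4% (73.1 to 84.8%) for hosts of members without a start off chromosome 18. It was 69.6% for hosts of weaker peaks, of which 2088 of 2496 matched, and 62.55% for all protein-coding genes. A gene's value covers all its transcripts, so it does not tell whether the internal start was used. Among the hosts of the 5 strongest members, Nrg1 and Muc3 were below 1 in all 4 KO libraries. Nrg1, host of the third strongest, had 0.469 and 0.2545 in Prdm9 KO testes, 0.408 and 0.362 in Hop2 KO testes and 0.134 in wild-type testis. Muc3 had 0.574 and 0.555 in Prdm9 KO testes, 0.697 and 0.674 in Hop2 KO testes and 52.9 in wild-type testis. Plekha5, host of the strongest, had 13.5 and 16.8 in Prdm9 KO testes, 11.85 and 13.5 in Hop2 KO testes and 81.6 in wild-type testis. Trip12 was high throughout, with 192 and 218 in Prdm9 KO testes, 194 and 156 in Hop2 KO testes and 692 in wild-type testis. Enpp6, host of the second, had 5.83 and 3.77 in Prdm9 KO testes, 5.25 and 2.77 in Hop2 KO testes and 20.2 in wild-type testis. Fragment count and host mRNA thus did not share an order among these 5 hosts.

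The hosts with printed start sequences had values above 5 in every library. Celf2 had 64.85 and 56.6 in Prdm9 KO testes, 61.2 and 47.7 in Hop2 KO testes and 21.0 in wild-type testis. Mllt10 had 47.1 and 50.2 in Prdm9 KO testes, 44.2 and 40.8 in Hop2 KO testes and 228 in wild-type testis, and Spdya had 10.3 and 11.0 in Prdm9 KO testes, 11.7 and 12.3 in Hop2 KO testes and 88.4 in wild-type testis. Tmpo lay between 30.4 and 39.8 in all 5 libraries, Jmjd1c between 10.85 and 19.6 and Atad2b between 5.80 and 8.71. Lin28b, whose start had the lowest content of G or C, had 2.945 and 3.27 in Prdm9 KO testes, 2.40 and 2.40 in Hop2 KO testes and 2.39 in wild-type testis.

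Of the 99 genes in the germ cell, somatic cell and chromatin lists, 3 hosted a member, or 3.03%, against 1.63% of all 21887 protein-coding genes. Weaker peaks away from gene ends lay in 9.09% of the listed genes and 9.77% of all protein-coding genes. Of 43 genes of early meiotic prophase 1 did, Spata22, which encodes a partner of the single-strand binding protein MEIOB, with 66 fragments at chr11:73328619-73331286. That peak held a listed start, with 51 fragments within 1000 bp of it and 1 at the gene's 5′ end. Of 12 genes of H3K4 methylation 1 did, the methyltransferase gene Setd1b, with 63 fragments. Of 8 Sertoli cell genes 1 did, Cldn11, which encodes a protein of the blood-testis barrier, with 93 fragments. None of 11 spermatid, 14 spermatogonial, 6 Leydig and 5 macrophage genes hosted a member. The weaker peaks away from gene ends lay in 3 of the early meiotic genes, 2 of the H3K4 methylation genes, 2 of the Sertoli genes, 1 spermatogonial gene, 1 Leydig gene and 0 of the spermatid and macrophage genes.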

How the data were processed

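Single-stranded DNA fragments and break peaks came from 1 Prdm9 (K/K) testis library. The deposited peak and fragment files hold positions without headers. Per the submitters' processing notes, CASAVA and MACS2 2.1.0.20150420 were used with builds GRCm38 and mm10. For aligner, peak threshold and control, no information was given in the sources used here. The mRNA values are a signal that the authors called TPM, per the file headers, made with CASAVA, kallisto and sleuth per the submitters' processing notes. Column sums differ between libraries, as those of plain TPM would not, so the values are rescaled and depth is unknown.

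Repeated fragment lines were counted once, so distinct fragments can understate strong peaks. Distances run from the peak's edges to annotated gene ends. Python 3.11.15, numpy 2.4.6, pandas 2.3.3, scipy 1.17.1 and matplotlib 3.10.9 were used, and counting functions were tested on simulated data. Transcript starts and windows come from the RefSeq promoter table, which has no chromosome 18 entries here. Named are the 20 members with the most fragments, the 5 farthest from gene ends, those with the 5 highest and 5 lowest contents of G or C, those on the X chromosome except 1 that is not reported here, and all hosted by listed genes. Other members were named after their values were seen, for strand order, mapping, the limits of the rule or shared hosts, as were Hif1a, Atxn7 and B3gat2. The planned windows around break centres could not be read without a genome, so windows at starts were used. Members, lists and starts were chosen with earlier results of these data known. Unused columns of per-sample values numbered 0.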

Additional observations from a re-analysis of the deposited data

How the results depend on the processing

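Of 27 alternatives, 16 left a result within its limits. For shares the limits were the binomial interval, and for the median distance 8265 to 10980 bp. For the number of members they were a fold range wider than its Poisson interval, so 376 and 790 counted as within them. The number of members, 560, was 1061 with at least 40 distinct fragments, 312 with at least 80 and 3446 when every fragment line was counted. It was 611, 498 and 376 at 500, 2000 and 5000 bp to a gene end, 571 with any overlap, which kept all 560, and 790 with ends of protein-coding genes only. The share inside a gene, 72.3%, was 68.35% at 5000 bp, 66.8% with at least 40 fragments, 78.85% with at least 80 and 67.3% for protein-coding genes only. The median distance to a gene end, 9566.5 bp, was 11027 bp from the break centre and 17636.5 bp to ends of protein-coding genes only. Island-like windows, 82%, were 69.3% at the stricter limits of 55% and 0.65. Host genes with mRNA, 86.0%, were 71.35% at a value of at least 5, and 85.4 to 85.7% with either Prdm9 KO replicate left out. The strand order and the share with a transcript start within 1000 bp moved little. Windows of other lengths around the break centre were not run, since no genome was used. No paired analysis was possible because no result comes from a test. The weakest members rest on 57 fragments, which limits their strand shares and shifts.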
